A study of Rattus norvegicus with 17 samples.

Results

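The genes described here are 37 autophagy and lysosome genes of rat skeletal muscle, chosen by name for their place in the pathway. All 37 were found, each on 1 entry, among the 32495 named entries of the deposited count table, and all 37 passed the filter on low counts that left 11856 genes to test.

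RNA was sequenced from the gastrocnemius, a hindlimb muscle, of 3 groups of rats on the control diet. The groups were tumor-bearing rats given chemotherapy (6 samples), tumor-bearing rats given no chemotherapy (5 samples) and healthy rats (5 samples). The labels name neither the tumor, its site, the agent, its dose and timing, nor the strain, age and sex of the animals. They do not say that each library came from a separate animal, so p-values measure only the spread between these samples. The counts of chemotherapy libraries 11 and 12 lay far closer together than those of any other pair within a group. They were summed and counted as 1 sample, called library 11.

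Total counts ran from 3023899 to 15777909 per deposited library. Of the muscle fiber markers, 8 named genes together held 165793 to 293850 CPM in every sample; CPM are counts per 1000000, scaled for library size and composition. Their sum was 165793 to 201470 CPM with chemotherapy, 166934 to 233218 in tumor and 205749 to 293850 in healthy samples. Of the 8, Ckm, Acta1 and Des were called lower with chemotherapy than in healthy muscle (37.5%, beside 13.7% of all genes). Taken singly the 8 were split, with 5 lower and 3 higher, and 2 of the higher had an unadjusted p below 0.05 by edgeR. The part of the shift in the sum in the values of the 37 genes was not tested. In a principal component analysis of the 1000 genes of largest variance, healthy libraries 1, 3 and 4 scored 27.7, 33.0 and 42.0 on component 1, apart from healthy libraries 2 and 5 at -10.4 and 7.18. The tumor libraries lay between -20.9 and 19.8 and the chemotherapy samples between -28.1 and 4.81. The alignment names also end in MB or VM, which the sources do not explain. Healthy libraries 1 to 4 and the summed library 11 carried MB, and all others carried VM.

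Autophagy encloses parts of the cytoplasm in a membrane that fuses with the lysosome, where acid hydrolases digest the contents. The ULK kinases start the process, a lipid kinase complex around Beclin 1 marks the membrane, and 2 ubiquitin-like conjugation reactions attach proteins of the Atg8 family (LC3 and GABARAP) to it. Cargo receptors such as p62 then tie the load to these proteins. In muscle the pathway removes mitochondria and protein aggregates, and FoxO factors are known to raise several of its messages during wasting in mice. The factors TFEB and TFE3 govern many lysosomal genes.

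In muscle of chemotherapy-treated tumor-bearing rats, 3 of the 37 genes were called higher than in healthy muscle and 2 lower (edgeR quasi-likelihood test, adjusted p below 0.05 over all genes). The 3 higher were Atg3 and Atg12, both of the conjugation machinery, and Bnip3l, a mitophagy receptor. The 2 lower were Tfeb and Tfe3, the transcription factors of lysosomal genes. The same test called 7.3% of all genes higher and 6.41% lower, 13.7% either way. The 5 members make 13.5% of 37, so their share was near that background. Fold changes here and below are log2, given ± SE. The median log2 fold change of the members was -0.07, against -0.02 over all genes tested. Of the 37, 14 were positive and 23 negative, where 48.8% of all genes were positive. At an unadjusted p below 0.05 there were 18 members (48.6%), 5 higher and 13 lower, beside 36.4% of all genes (18.9% higher and 17.5% lower). Scaling by total counts alone moved the median of all genes to 0.12, and with it 21 members were positive, 6 were called higher and 1 lower. All 5 calls ended with the suffix as a term, with 1 surrogate variable, without healthy libraries 1, 3 and 4 together, and without any 1 of healthy libraries 1, 3 and 4 or chemotherapy libraries 13, 14 and 15. In each of these fits 0% of all genes were called. Without chemotherapy library 16 only Bnip3l and Tfe3 were called, where 4.48% of all genes were. Without chemotherapy library 17 Tfeb was not called (adjusted p = 0.0565), where 8.82% of all genes were. Without healthy library 2, by contrast, 6 members were called higher and 12 lower, where 31.7% of all genes were called, and without chemotherapy library 11 the counts were 4 and 7, where 24.4% were. Leaving out healthy library 5 or tumor library 8 gave 4 higher and 3 lower each, where 20% and 19.1% of all genes were called.

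Tumor-bearing rats without chemotherapy had none of the 37 genes called against healthy rats, nor was any of all genes tested (0%). DESeq2 and limma-voom also called none of the members, while DESeq2 called 11 of all genes higher and 18 lower. In this comparison DESeq2 gave an adjusted p for 36 of the 37 members. At an unadjusted p below 0.05, 3 members were higher (8.88% of all genes) and 5 lower (9.12%), together 21.6% of the 37, beside 18% of all genes. The median log2 fold change was -0.01, beside 0.01 over all genes, with 18 of 37 members positive and 51% of all genes. The groups overlapped for each of the 37, and for all but 0.439% of genes upward and 0.557% downward. Without healthy library 2, Bnip3l alone among the members was called higher, where 4.2% of all genes were called. Chemotherapy-treated against untreated tumor-bearing rats likewise gave no call by edgeR, DESeq2 or limma-voom among the members. DESeq2 gave an adjusted p for 35 of the 37 there. By edgeR 0% of all genes were called, while DESeq2 called 1 of all genes higher and 7 lower. Ctss alone of the 37 had an unadjusted p below 0.05, on the higher side, 2.7% of the members beside 5.78% of all genes (1.97% higher and 3.81% lower).

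**Figure D1:**
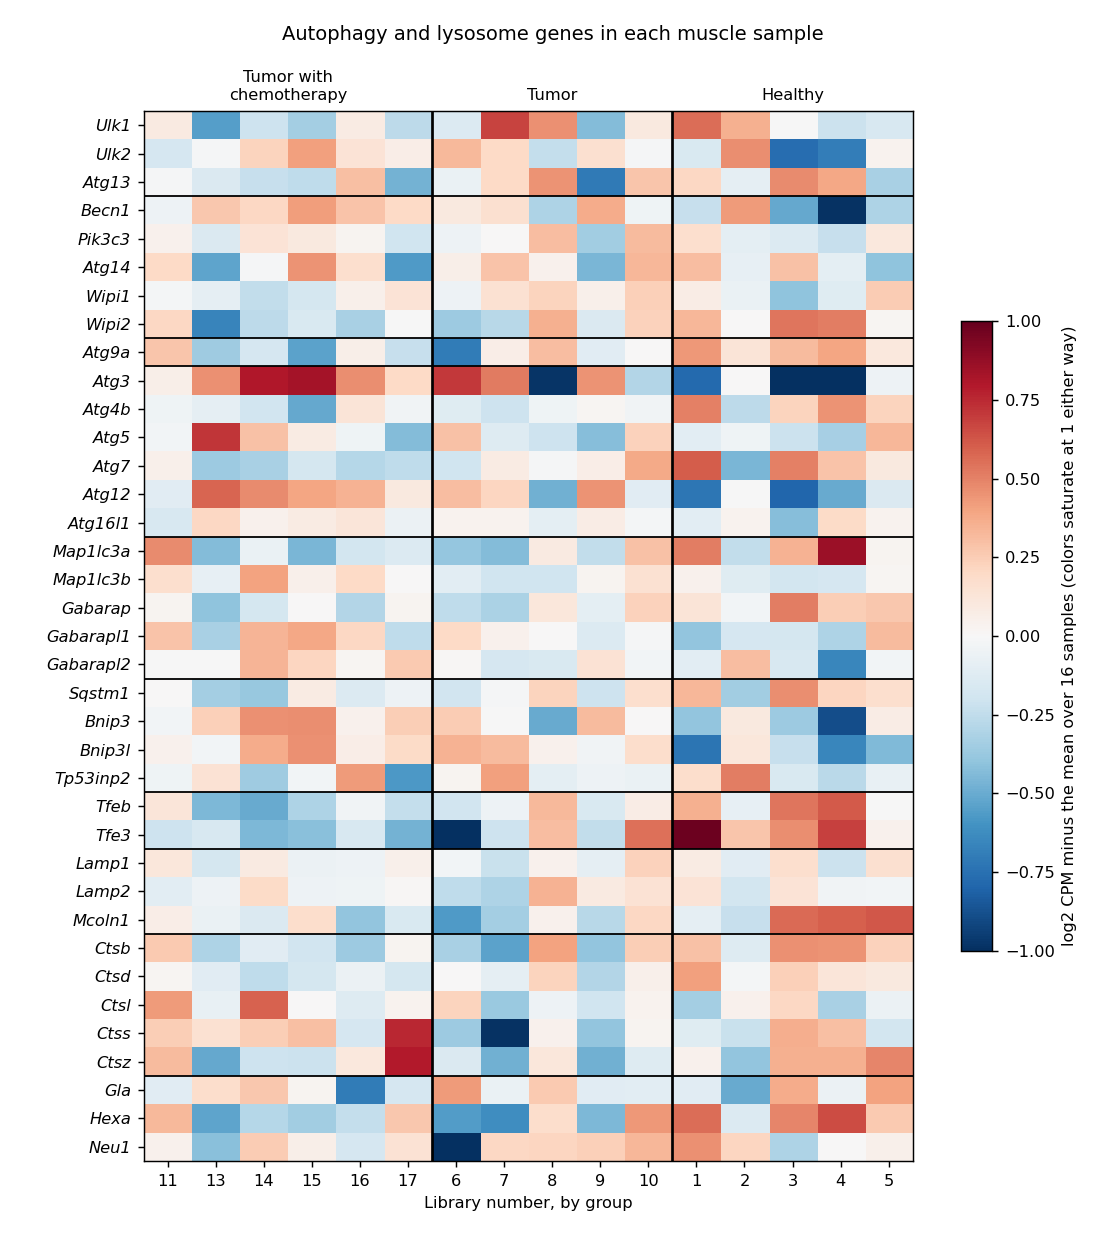
Each row is 1 of the 37 genes, grouped by role, and each column 1 sample, by library number within its group. Color gives log2 CPM minus the gene's mean over the 16 samples, red above and blue below. Atg3 and Atg12 are blue in healthy libraries 1, 3 and 4 and red in chemotherapy libraries 13 to 16, while Tfeb and Tfe3 are red in those healthy libraries and blue in chemotherapy libraries 13, 14 and 15, and Lamp1 and Lamp2 are pale throughout.

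**Figure D2:**
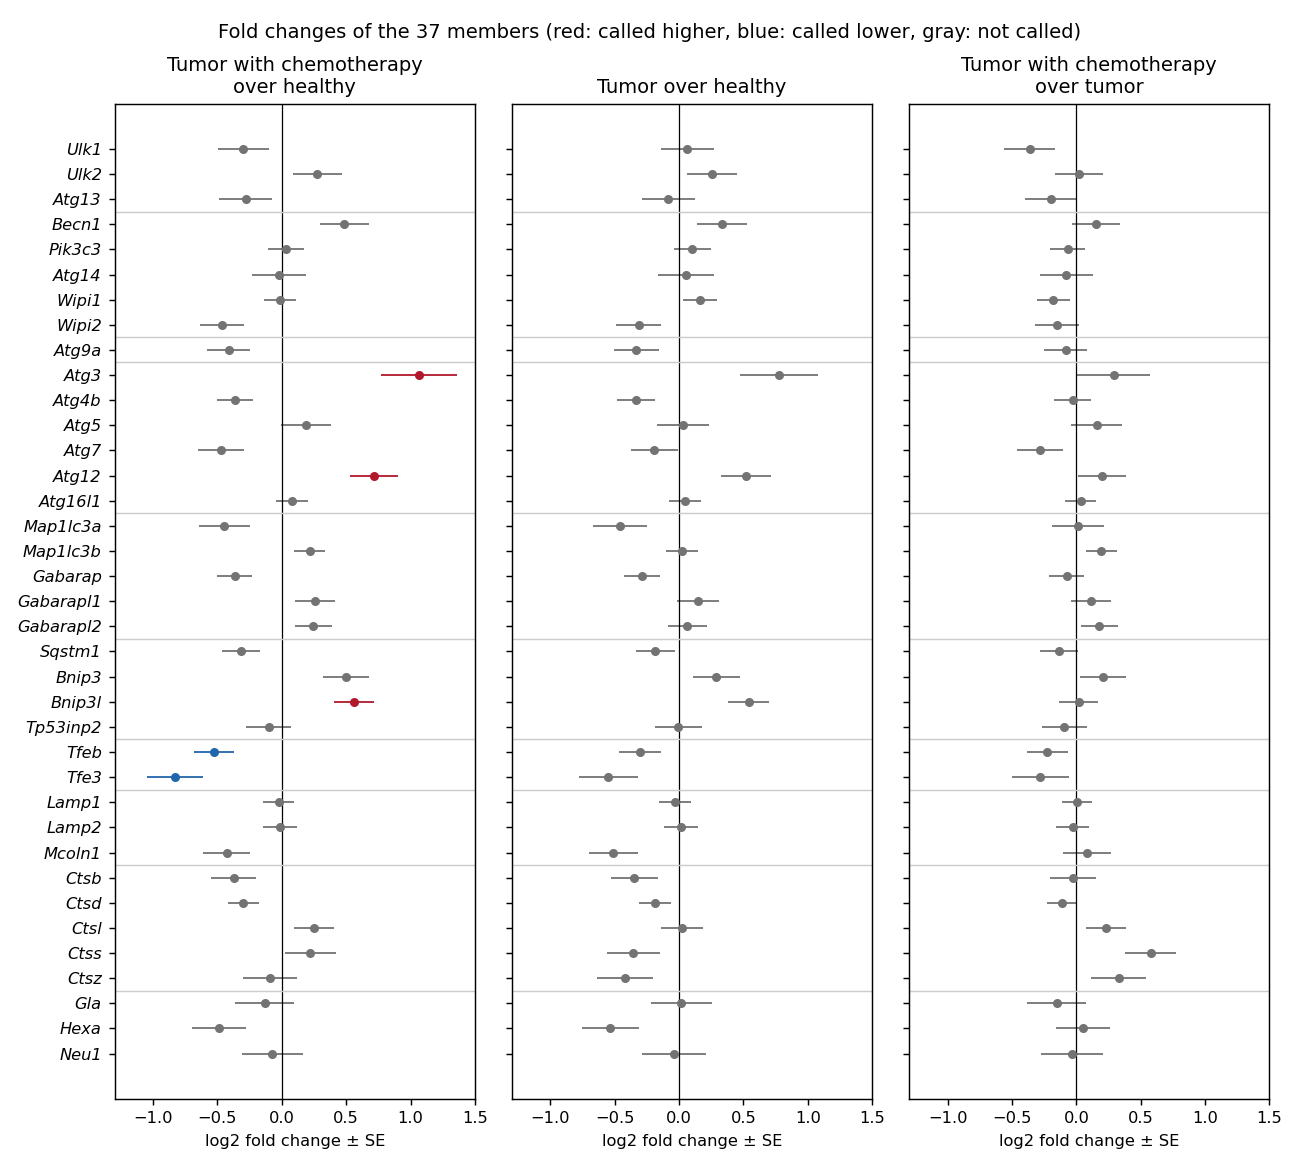
Points are log2 fold changes of the 37 genes in the 3 comparisons, and bars are standard errors from the edgeR fit. In the comparison of chemotherapy with healthy, Atg3, Atg12 and Bnip3l are called higher and Tfeb and Tfe3 lower. In the other 2 panels no gene is called, and the panels for tumor and for chemotherapy against healthy share the 5 healthy samples.

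The conjugation machinery held the largest fold change of the 37. Atg3, the E2-like enzyme that attaches Atg8 proteins to lipid, had 16.5 at the lowest, 21.9 at the median and 28.4 CPM at the highest in the 6 chemotherapy samples. It had 25.96, 22.8, 8.07, 21.8 and 12.97 CPM in the 5 tumor libraries and 9.26, 15.9, 7.74, 6.21 and 15.3 CPM in the 5 healthy ones. All chemotherapy samples lay above all healthy samples, while tumor library 8 lay among the 3 lowest healthy libraries. The log2 fold change with chemotherapy over healthy was 1.07 ± 0.29 (adjusted p = 0.0322), and 0.78 for tumor over healthy (adjusted p = 0.242). Groups did not overlap for 1 member in each direction, where this held for 2.02% of all genes upward and 1.97% downward.

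Atg12 encodes the ubiquitin-like protein that is joined to Atg5. Chemotherapy samples had 28.8 at the lowest, 40.2 at the median and 46.6 CPM at the highest. Tumor libraries had 38.5, 36.1, 22.3, 42.6 and 28.7 CPM, and healthy libraries 18.9, 31.03, 17.96, 21.9 and 28.1 CPM. Healthy library 2 lay above the lowest chemotherapy sample, and the other healthy libraries lay below all 6. The gene averaged 38.7 ± 6.57 CPM with chemotherapy and 23.6 ± 5.75 CPM in healthy muscle (log2 fold change 0.72 ± 0.19, adjusted p = 0.0301), and 33.6 ± 8.09 CPM in tumor muscle (adjusted p = 0.242 against healthy). Means here and below are ± SD, over 6 chemotherapy, 5 tumor and 5 healthy samples.

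None of the other 4 genes of the conjugation machinery was called. Atg7, the E1-like enzyme that acts before Atg3, averaged 9.36 ± 1.03 CPM with chemotherapy and 13.01 ± 3.41 CPM in healthy muscle (log2 fold change -0.48, adjusted p = 0.0674). Atg4b, the protease that trims and recycles Atg8 proteins, had a log2 fold change of -0.36 with chemotherapy over healthy (adjusted p = 0.0774) and -0.33 with tumor over healthy (adjusted p = 0.257). Atg5 and Atg16l1, which form the E3-like complex with Atg12, were at 0.19 and 0.08 with chemotherapy over healthy.

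**Figure D3:**
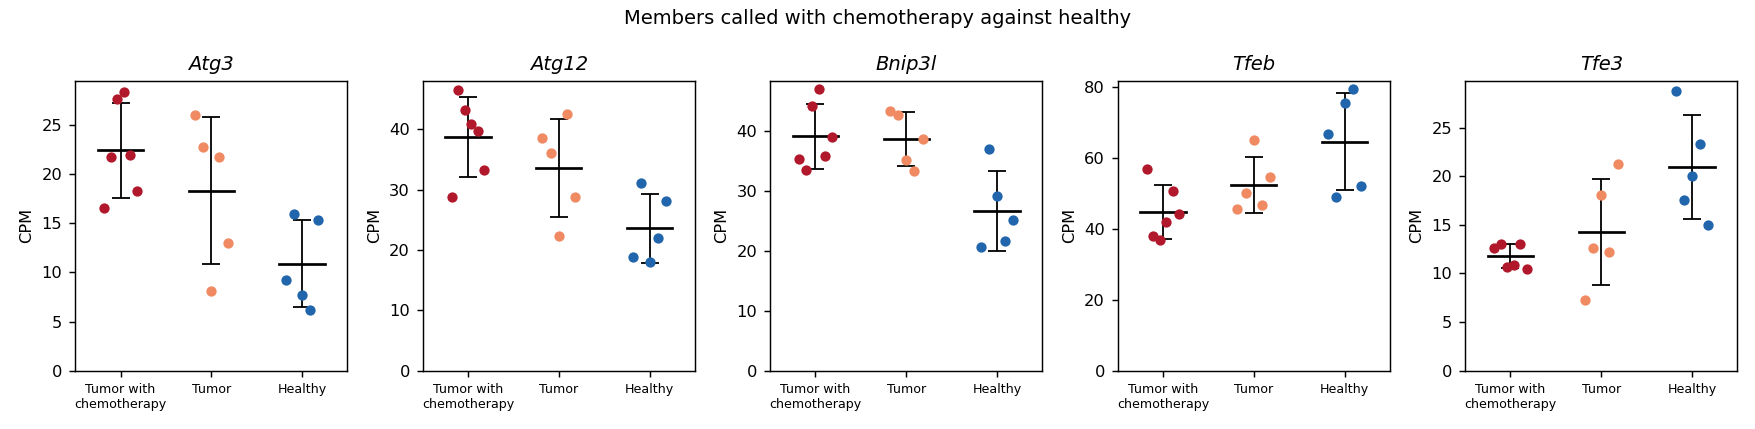
Points are CPM in single samples of the 5 called genes, with chemotherapy left, tumor in the middle and healthy right; bars are means and whiskers SD (n = 6, 5 and 5). Atg3 and Tfe3 show no overlap between chemotherapy and healthy samples, while Atg12, Bnip3l and Tfeb overlap in part.

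Among cargo receptors, Bnip3l was called. It encodes NIX, which sits in the outer mitochondrial membrane and ties mitochondria to Atg8 proteins, also in maturing red blood cells. Chemotherapy samples had 33.6 at the lowest, 37.4 at the median and 47.04 CPM at the highest. Tumor libraries had 43.4, 42.7, 35.2, 33.3 and 38.7 CPM and healthy libraries 20.6, 37.1, 29.1, 21.7 and 25.2 CPM. Healthy library 2 lay within the range of both tumor-bearing groups, and the 4 other healthy libraries below all 11 tumor-bearing samples. The log2 fold change was 0.56 ± 0.15 with chemotherapy over healthy (adjusted p = 0.032) and 0.54 ± 0.16 with tumor over healthy (adjusted p = 0.211). All 5 red blood cell markers tested had negative fold changes in both comparisons, with medians of -0.88 and -1.06, and their summed level ran from 124.0 to 922 CPM with chemotherapy, 227 to 589 in tumor and 441 to 1380 in healthy samples. The part of red blood cells in the Bnip3l values was not tested.

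Bnip3, the related receptor, had 321 at the lowest, 387 at the median and 451 CPM at the highest with chemotherapy. Its levels were 390.1, 327, 231, 407 and 328 CPM in tumor libraries and 249, 351, 255, 177 and 344 CPM in healthy libraries. The groups overlapped through healthy libraries 2 and 5, and the gene was not called (log2 fold change 0.50 ± 0.18 with chemotherapy over healthy, adjusted p = 0.0607).

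Sqstm1, which encodes the ubiquitin-binding receptor p62, pointed the other way without a call. Chemotherapy samples had 367 at the lowest, 448 at the median and 507 CPM at the highest, tumor libraries 419, 474, 558, 413 and 538 CPM and healthy libraries 600.0, 376, 658, 555 and 538 CPM. Healthy library 2 lay near the lowest chemotherapy sample and the other healthy libraries above all 6 (log2 fold change -0.32 ± 0.15, adjusted p = 0.125). Tp53inp2, a nuclear protein that moves to autophagosomes and binds Atg8 proteins, was at -0.10 with chemotherapy over healthy and -0.01 with tumor over healthy.

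Both TFEB-family factors were called lower with chemotherapy. Tfeb had 36.8 at the lowest, 43.2 at the median and 56.9 CPM at the highest in chemotherapy samples, 45.6, 50.3, 65.2, 46.8 and 54.8 CPM in tumor libraries and 66.9, 49.1, 75.7, 79.7 and 52.1 CPM in healthy libraries. Healthy libraries 2 and 5 lay within the chemotherapy range and libraries 1, 3 and 4 above it. The log2 fold change was -0.53 ± 0.16 (adjusted p = 0.0375), and scaling by total counts alone (-0.39, adjusted p = 0.079) ended the call. Using no filter (adjusted p = 0.057), fitting only these 2 groups (0.0503) or keeping 17 separate libraries (0.0522) ended it too.

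Tfe3 was the member whose chemotherapy samples all lay below the healthy ones. They had 10.5 at the lowest, 11.8 at the median and 13.02 CPM at the highest, against 28.7, 17.6, 20.1, 23.3 and 14.98 CPM in healthy libraries. Tumor libraries were spread over the levels of both groups, at 7.30, 12.6, 18.04, 12.2 and 21.3 CPM. The log2 fold change was -0.83 ± 0.22 with chemotherapy over healthy (adjusted p = 0.0303), -0.55 with tumor over healthy (adjusted p = 0.247) and -0.28 with chemotherapy over tumor (adjusted p = 0.795).

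TFEB and TFE3 bind the CLEAR element, a palindrome built on the E-box CACGTG. RefSeq promoter windows (rat build GRCr8, 250 bases before to 50 after the gene start) matched 31 of the 37 members by symbol. The core TCACGTGA, which contains CACGTG and reads the same on both strands, stood in 4 of the 31 windows (12.9%) and in 0.777% of all 33469 windows in the table. CACGTG itself stood in 7 of the 31 (22.6%) and in 6.42% of all. The FoxO motif GTAAACA or its reverse complement TGTTTAC was in none of the 31 windows and in 3.78% of all. A match is a description of these letters and not a measured binding site. The windows of the table were not limited to genes that passed the filter on low counts, as the members had. The members were also picked for their place in this pathway, and the difference in shares was not tested. The 4 windows with the core are shown, 5′ to 3′ on the gene's strand, because they hold the letters that Tfeb and Tfe3 proteins recognize; capitals mark TCACGTGA.
Atg3, chr11:69159231-69159530, minus strand: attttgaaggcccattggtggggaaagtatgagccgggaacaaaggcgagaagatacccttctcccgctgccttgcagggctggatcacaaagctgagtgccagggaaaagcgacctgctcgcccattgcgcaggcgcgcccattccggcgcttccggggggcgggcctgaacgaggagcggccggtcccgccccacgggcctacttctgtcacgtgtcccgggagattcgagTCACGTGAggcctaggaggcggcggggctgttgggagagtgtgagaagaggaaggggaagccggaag
Ctsd, chr1:206968772-206969071, minus strand: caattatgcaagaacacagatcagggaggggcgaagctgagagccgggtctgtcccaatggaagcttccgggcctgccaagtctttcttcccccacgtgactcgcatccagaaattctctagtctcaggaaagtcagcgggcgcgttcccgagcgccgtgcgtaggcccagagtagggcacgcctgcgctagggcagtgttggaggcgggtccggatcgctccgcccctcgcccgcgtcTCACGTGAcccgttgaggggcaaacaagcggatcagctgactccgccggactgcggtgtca
Lamp1, chr16:83075014-83075313, minus strand: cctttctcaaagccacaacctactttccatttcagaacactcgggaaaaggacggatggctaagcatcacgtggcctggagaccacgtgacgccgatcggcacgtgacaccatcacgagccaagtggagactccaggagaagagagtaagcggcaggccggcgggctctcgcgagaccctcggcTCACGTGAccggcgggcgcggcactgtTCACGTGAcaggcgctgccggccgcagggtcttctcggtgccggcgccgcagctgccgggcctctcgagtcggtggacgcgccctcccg
Mcoln1, chr12:6358008-6358307, plus strand: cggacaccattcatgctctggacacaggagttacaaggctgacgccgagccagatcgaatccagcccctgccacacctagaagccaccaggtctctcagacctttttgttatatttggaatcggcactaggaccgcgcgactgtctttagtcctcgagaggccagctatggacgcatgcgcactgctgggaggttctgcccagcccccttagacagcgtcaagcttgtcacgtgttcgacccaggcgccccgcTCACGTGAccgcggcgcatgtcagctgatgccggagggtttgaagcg
Lamp1 held the core at 2 places and the other 3 genes at 1. The 4 genes did not move alike beside the lower Tfeb and Tfe3. With chemotherapy over healthy Atg3 was called higher (log2 fold change 1.07), while Ctsd at -0.30, Lamp1 at -0.03 and Mcoln1 at -0.43 were not called.

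Of the Atg8 family no member was called, and the signs were mixed. Map1lc3b, the LC3 protein most used to follow autophagosomes, had 68.04 at the lowest, 77.9 at the median and 95.5 CPM at the highest in chemotherapy samples. Its levels were 66.9, 62.7, 62.9, 73.5 and 80.3 CPM in tumor libraries and 74.2, 66.2, 63.3, 64.4 and 72.9 CPM in healthy libraries. All 6 chemotherapy samples lay above the healthy median and 4 above the healthy maximum (log2 fold change 0.22 ± 0.12, adjusted p = 0.192), and scaling by total counts alone made it a call (0.35, adjusted p = 0.047). Against tumor libraries the log2 fold change was 0.19 ± 0.12 (adjusted p = 0.778).

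Gabarapl1, a FoxO-responsive Atg8 gene in mice, had 35.99 at the lowest, 53.4 at the median and 58.9 CPM at the highest with chemotherapy. Tumor libraries had 51.8, 46.3, 45.1, 40.97 and 44.8 CPM and healthy libraries 34.2, 40.1, 39.8, 36.5 and 56.1 CPM, with healthy library 5 exceeded by 2 samples only, both chemotherapy (log2 fold change with chemotherapy over healthy 0.26 ± 0.16, adjusted p = 0.235). Gabarapl2 was at 0.24 in that comparison, while Map1lc3a and Gabarap were at -0.45 and -0.36 (adjusted p = 0.117 and 0.0663). The counting program is not given, so reads shared between these related genes and their processed copies may have been split, and the values of the family are uncertain to that extent.

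The genes that start the process gave no calls. Ulk1, the initiating kinase, had 20.3 at the lowest, 25.2 at the median and 31.6 CPM at the highest with chemotherapy, 26.98, 47.5, 40.7, 21.9 and 31.7 CPM in tumor libraries and 43.6, 37.9, 29.6, 25.5 and 26.5 CPM in healthy libraries. No chemotherapy sample exceeded the tumor median, yet the ranges overlapped (log2 fold change -0.36 ± 0.20 with chemotherapy over tumor, adjusted p = 0.778). Ulk2, its relative, was at 0.27 with chemotherapy over healthy and Atg13, their binding partner, at -0.28.

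In the Beclin 1 complex, Becn1 averaged 63.5 ± 6.58 CPM with chemotherapy, 57.1 ± 9.75 CPM in tumor and 45.7 ± 16.8 CPM in healthy muscle. Its log2 fold change with chemotherapy over healthy was 0.49 ± 0.19 (adjusted p = 0.0767), and healthy library 2 had the highest level of all 16 samples. Pik3c3, the lipid kinase VPS34, was at 0.03 and Atg14, which guides the complex to the forming membrane, at -0.02. Wipi1 and Wipi2, which read the lipid it makes, were at -0.01 and -0.47 (adjusted p = 0.95 and 0.0635). Atg9a, the transmembrane protein that brings membrane vesicles, averaged 126 ± 25.9 CPM with chemotherapy and 168 ± 17.2 CPM in healthy muscle, with 5 of 6 chemotherapy samples below every healthy one (log2 fold change -0.41 ± 0.17, adjusted p = 0.0825).

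**Figure D4:**
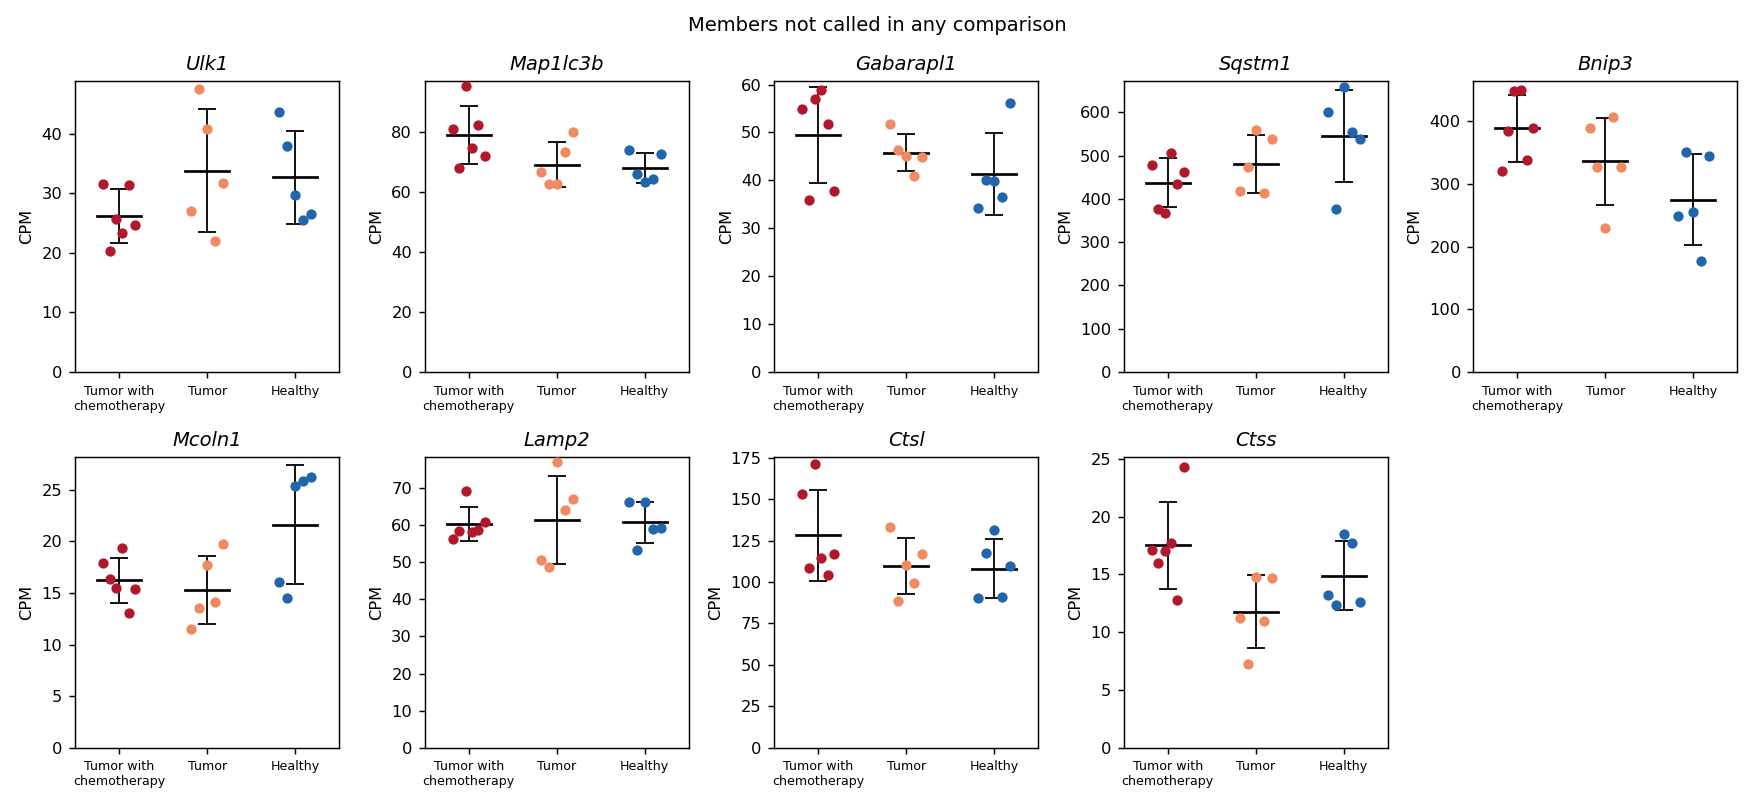
Points are CPM in single samples of 9 members called in no comparison, with chemotherapy left, tumor in the middle and healthy right; bars are means and whiskers SD (n = 6, 5 and 5). The groups overlap for each gene, and for Ctss 5 of the 6 chemotherapy samples lie above all 5 tumor libraries.

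At the lysosomal membrane, Lamp1 and Lamp2, its main glycoproteins, varied little between samples. Lamp2 had 56.3 at the lowest, 58.6 at the median and 69.1 CPM at the highest with chemotherapy, 50.6, 48.7, 77.01, 64.2 and 66.9 CPM in tumor libraries and 66.3, 53.3, 66.3, 58.95 and 59.2 CPM in healthy libraries, with full overlap (log2 fold change -0.01 ± 0.13 with chemotherapy over healthy, adjusted p = 0.954). The highest level of Lamp1 was 1.37 times its lowest over the 16 samples, the smallest ratio of the 37, and the largest was 4.56 for Atg3. Mcoln1, the calcium channel TRPML1, had 13.02 at the lowest, 15.9 at the median and 19.3 CPM at the highest with chemotherapy, 11.5, 13.5, 17.7, 14.1 and 19.7 CPM in tumor libraries and 16.1, 14.6, 25.3, 25.9 and 26.3 CPM in healthy libraries. Healthy libraries 3, 4 and 5 lay above all 11 tumor-bearing samples, while healthy libraries 1 and 2 lay among them. The log2 fold change was -0.51 ± 0.19 with tumor over healthy (adjusted p = 0.242) and -0.43 ± 0.18 with chemotherapy over healthy (adjusted p = 0.0987).

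The 5 cathepsins, lysosomal proteases, also had no call. Ctsl, known as a gene raised in muscle wasting, had 105 at the lowest, 116 at the median and 172 CPM at the highest with chemotherapy, 133, 88.5, 110.2, 99.7 and 117 CPM in tumor libraries and 90.1, 118, 132, 91.2 and 109.6 CPM in healthy libraries. Chemotherapy libraries 11 and 14 exceeded all others and the remaining 4 lay within the healthy range (log2 fold change 0.25 ± 0.16, adjusted p = 0.254). Ctsb averaged 218 ± 36.5 CPM with chemotherapy and 283 ± 43.3 CPM in healthy muscle (adjusted p = 0.13), and Ctsd 336 ± 22.8 CPM with chemotherapy and 414 ± 48.2 CPM in healthy muscle (adjusted p = 0.0817). Among the lysosomal glycosidases, Hexa, a subunit of beta-hexosaminidase, was at -0.49 with chemotherapy over healthy and -0.53 with tumor over healthy (adjusted p = 0.103 and 0.247). Gla, the alpha-galactosidase, and Neu1, the sialidase, were at -0.13 and -0.07 with chemotherapy over healthy.

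Ctss, a cathepsin of antigen-presenting cells, had the smallest p of the members between the 2 tumor-bearing groups. Chemotherapy samples had 12.8 at the lowest, 17.1 at the median and 24.3 CPM at the highest, tumor libraries 11.2, 7.24, 14.8, 10.96 and 14.7 CPM and healthy libraries 13.2, 12.4, 18.5, 17.7 and 12.6 CPM. Of the 6 chemotherapy samples, 5 lay above all tumor libraries (log2 fold change 0.58 ± 0.20, adjusted p = 0.778). Ctsz, another cathepsin of myeloid cells, was at 0.33 in that comparison (adjusted p = 0.779). Of 15 macrophage markers tested, 11 had positive fold changes with chemotherapy over tumor, with a median of 0.38 and none called (3 at an unadjusted p below 0.05, where 1.97% of all genes were higher). The summed level of the 16 listed markers ran from 303 to 539 CPM with chemotherapy, 239.8 to 424 in tumor and 295 to 553 in healthy samples. With tumor over healthy, 14 of the 15 were negative (median -0.53), beside -0.35 for Ctss and -0.42 for Ctsz. The part of macrophages in the cathepsin values was not tested, and in bulk tissue fewer cells of a type and less RNA per cell cannot be told apart. Neutrophil markers summed to 0 to 6.65 CPM, and none of the 6 passed the filter on low counts.

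Healthy library 2 most often held the highest or lowest level of its group, among the members as among all genes tested. It was the highest healthy library for 8 members, among them Atg3, Atg12, Becn1, Bnip3, Bnip3l and Ulk2. It was the lowest for 15, among them Tfeb, Sqstm1, Mcoln1, Hexa, Ctsb, Ctsd, Atg7 and Atg4b. Together that makes 62.2% of the members, beside 57.6% of all genes tested for which library 2 was the highest or lowest of the 5 healthy libraries. Healthy library 1 held such a place for 35.1% of members (28.9% of all genes), library 3 for 40.5% (31.6%), library 4 for 35.1% (52.6%) and library 5 for 27% (29.3%).

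**Figure D5:**
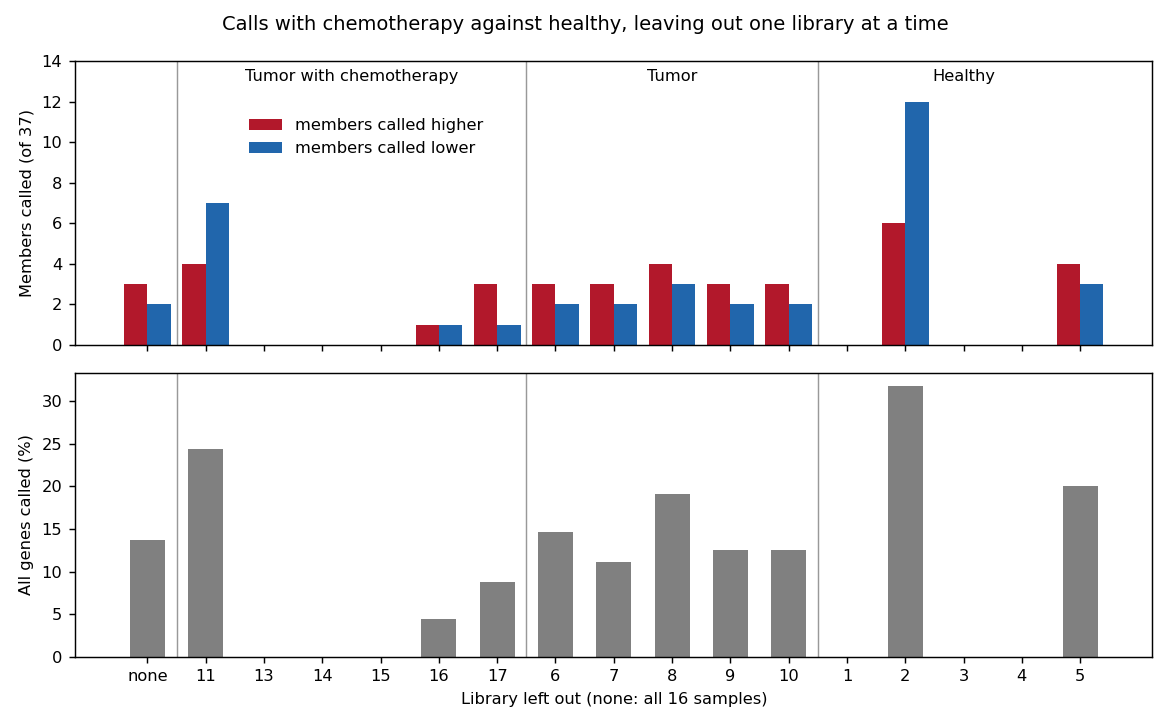
The upper panel counts members called higher and lower with chemotherapy over healthy after 1 library at a time was left out, and the lower panel gives the percentage of all genes called in the same fits. No member and no gene is called without library 13, 14, 15, 1, 3 or 4, while 6 members higher and 12 lower are called without library 2.

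Of 120 further autophagy and lysosome genes in 6 lists, 110 were tested, and 5 were called higher and 12 lower with chemotherapy over healthy (15.5%, beside 13.7% of all genes). Their median log2 fold change was -0.12 and 68 were negative. No gene of these lists was called in the other 2 comparisons by edgeR. With tumor over healthy, 15 had an unadjusted edgeR p below 0.05 (13.6%, beside 18% of all genes). With chemotherapy over tumor there were 5 (4.55%, beside 5.78% of all genes). Without any 1 of healthy libraries 1, 3 and 4 or chemotherapy libraries 13, 14 and 15, no gene of any kind was called in the comparison with healthy, and so none of these.

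Other cargo receptors and mitophagy genes held 5 of the calls among 12 tested (41.7%, beside 13.7% of all genes). Tex264, a receptor for the endoplasmic reticulum, averaged 18.7 ± 4.16 CPM with chemotherapy and 33.3 ± 6.21 CPM in healthy muscle (log2 fold change -0.83 ± 0.20, adjusted p = 0.0271). Ccpg1, which serves the same organelle, moved the other way, with 70.3 ± 8.37 CPM under chemotherapy and 39.5 ± 14.3 CPM in healthy muscle, and all chemotherapy samples above all healthy ones (log2 fold change 0.84 ± 0.21, adjusted p = 0.0289). Wdfy3, a scaffold for protein aggregates, was at -0.63, Optn, a mitophagy receptor, at 0.96, and Nbr1, a relative of p62 named after its value was seen, at 0.40. Among 21 other genes of autophagosome building, 1 was called higher and 1 lower (9.52%, below the 13.7% of all genes). Rb1cc1, the scaffold FIP200 of the ULK complex, rose (119 ± 29.3 CPM with chemotherapy and 56.1 ± 35.99 CPM in healthy muscle). Epg5, a tether for fusion with the lysosome, fell (41.9 ± 2.35 CPM with chemotherapy and 57.3 ± 7.95 CPM in healthy muscle). Of 13 fusion genes (7.69% called, also below that share), Vps18 of the HOPS tethering complex fell (log2 fold change -0.65).

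Of 32 other hydrolases and activators, 4 fell and none rose with chemotherapy (12.5% called, near the 13.7% of all genes), with 24 negative and a median of -0.20 (3 fell and 18 were negative when scaled by total counts alone). Galns, which digests sulfated sugars, was at -0.81 ± 0.17 (adjusted p = 0.0261), Gaa, the lysosomal glycogen-digesting enzyme, at -0.54, and Smpd1, the acid sphingomyelinase, at -0.63. Of 16 other membrane and sorting genes 12.5% were called, near the 13.7% of all genes. Igf2r, the mannose 6-phosphate receptor that carries hydrolases to lysosomes, fell to 161 ± 16.6 CPM with chemotherapy, against 228 ± 24.1 CPM in healthy muscle, and Cln3 was at -0.57. Of 16 subunits of the vacuolar ATPase, the proton pump of lysosomes, 18.8% were called, beside 13.7% of all genes. The membrane subunits Atp6v0b and Atp6v0c fell (-0.50 and -0.68) and the cytosolic subunit Atp6v1c1 rose (0.73). Of Gaa, Igf2r, Cln3, Atp6v0b, Epg5, Vps18 and Wdfy3, none stayed called when scaled by total counts alone. The fibroblast markers Pdgfra, Col3a1 and Cd34 also fell with chemotherapy, 3 of 7 tested (42.9%, beside 13.7% of all genes), though Pdgfra was not called when scaled by total counts alone. The summed fibroblast markers ran from 2309 to 10900 CPM, against 4669 to 14351 CPM in healthy samples. Of 15 macrophage markers 12 were negative in this comparison (median -0.18), yet 1 was called higher and 0 lower (6.67% called, beside 13.7% of all genes). For 1 of the 15 macrophage markers all chemotherapy samples lay above all healthy ones, which held for 2.02% of all genes. The summed macrophage levels given above overlapped. Of 6 endothelial markers 4 were negative (median -0.37), with Tie1 called lower and Emcn higher (33.3% called, beside 13.7% of all genes). Of 5 adipocyte markers 4 were positive (median 1.83) with none called. The summed endothelial markers ran from 171 to 239 CPM with chemotherapy, against 239.5 to 262 CPM in healthy samples, and the adipocyte markers from 201 to 539.6 CPM, against 196 to 361 CPM in healthy samples. Whether cell makeup had a part in the lower lysosomal genes was not tested.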

How the data were processed

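Per the labels, stranded libraries were made from gastrocnemius total RNA after removal of ribosomal RNA. The authors deposited raw read counts per gene for 17 libraries, with no normalization. TopHat2 2.0.10, Bowtie2, CASAVA 1.9, FastQC 0.11.4 and Trim Galore 0.4.1 are named in the submitters' processing notes. The sources used here give no build, annotation or counting program. Of 32883 entries, 388 without a name were left out (at most 0.373% of a library's counts).

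Chi-square per degree of freedom was 2.03 between the counts of libraries 11 and 12, against 5.16 for the next closest pair within a group. The 2 were summed, which left 16 samples. All samples entered 1 fit with a mean per group in edgeR 4.0.16 (R 4.3.3): filterByExpr with a minimum count of 10, TMM scaling, robust quasi-likelihood fit, 13 residual degrees of freedom, and Benjamini-Hochberg adjustment over 11856 genes. Calls were made where the adjusted p was below 0.05. The SE is the size of the log2 fold change over the square root of F. CPM were computed here from the deposited counts and compare samples, not genes. The fit was tested on simulated data. Alternatives were other scalings and filters, DESeq2 1.42.0, limma-voom (limma 3.58.1), 1 surrogate variable from sva 3.50.0, a suffix term and subsets of libraries.

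The members, the further lists and the alternatives were chosen with earlier results of these data known. Sample values are printed for members called in any comparison, for 8 genes chosen by name, and for the 3 smallest p in each comparison. They are given by library for tumor and healthy samples, and as lowest, median and highest for chemotherapy samples. In the further lists, up to 4 called genes per list are named, and Nbr1 was added to them after its value was seen. Of the 120 further pathway genes, 112 had a matching name, and the others are not analysed here. Some genes picked by this rule are not reported here.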

Additional observations from a re-analysis of the deposited data

Results flagged for a closer look

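In 5 of the 111 sets of values (37 genes in 3 groups), 1 sample lay far from the others of its group by Dixon's criterion, where chance alone gives about 1 in 20. Map1lc3a had 144 CPM in chemotherapy library 11, against 75.4 to 98.9 in the other 5 chemotherapy samples. Gabarapl1 had 56.1 CPM in healthy library 5, against 34.2 to 40.1 in the others. Tp53inp2 had 297 CPM in tumor library 7, against 209 to 228. Lamp2 had 69.1 CPM in chemotherapy library 14, against 56.3 to 60.8. Neu1 had 2.71 CPM in tumor library 6, against 7.91 to 8.65.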

How the results depend on the processing

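No fold change of the 5 called genes turned its sign under the alternatives, but those of other members did. For chemotherapy over healthy, the surrogate variable reversed 16 of the 37, with sizes of up to 0.49 before. Omitting 3 healthy libraries (1, 3 and 4) reversed 8, with sizes of up to 0.45 before. DESeq2 size factors and the lack of a filter reversed 0 each. For tumor over healthy, the same omission reversed 13 and the suffix term 11. With chemotherapy over healthy, total counts only gave 6 members higher and 1 lower, and it shifted the median of all genes to 0.12, against -0.02, with 1669 genes called higher and 348 lower in place of 865 and 760. Tfe3 was the member lower with no filter, with only these 2 groups and with 17 separate libraries (1 each). The DESeq2 test gave 4 higher and 4 lower, and limma-voom 5 higher and 2 lower. The counts over all genes were 474 higher and 410 lower with no filter, 1454 and 1123 by DESeq2, and 1564 and 880 by limma-voom. The suffix as a term, 1 surrogate variable, the omission of healthy libraries 1, 3 and 4, and the VM libraries alone each gave 0 higher and 0 lower. The suffix term rests on healthy library 5 and chemotherapy library 11, since the other samples of their groups carry the other suffix. Among VM libraries, with 1 healthy sample assumed to vary like the other groups, log2 fold changes were 0.62 for Atg3, 0.53 for Atg12, 0.665 for Bnip3l, -0.30 for Tfeb and -0.37 for Tfe3, and with 1 surrogate variable 0.14, 0.19, 0.31, -0.08 and -0.35. Leaving out 1 sample gave 0 to 6 higher and 0 to 12 lower with chemotherapy over healthy, and 0 to 1 higher with tumor over healthy. Over the 29 alternatives, Atg3 and Atg12 were called in 18 each, Bnip3l and Tfe3 in 19 each and Tfeb in 13. The cause of these losses was not tested. The groups share no library number in the labels. In the alignment names a number recurs within groups, for healthy libraries 4 and 5 and for chemotherapy libraries 11, 12 and 14. Chi-square per degree of freedom was 100.02 between healthy libraries 4 and 5. It was 42.4 between chemotherapy libraries 11 and 14, against 2.03 between 11 and 12. If the number marks an animal, the group sizes are too large, which was not tested. Between groups a number recurs in tumor library 9 and healthy library 2 and in tumor library 10 and healthy library 3. The meaning of the number is not given. With that number as a replicate block in these 4 libraries, chosen after seeing the data, 0 members were higher and 0 lower with tumor over healthy (1 residual degree of freedom, 1 member at an unadjusted p below 0.05, 3 genes called in all). The paired libraries' deviations from their group means correlated at 0.342 and 0.236. For the 2 comparisons with chemotherapy, no paired analysis was possible because no number links its samples to another group.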

Other observations

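Atrophy genes linked to FoxO factors, listed beside the pathway, showed 1 call among 8 tested with chemotherapy over healthy (12.5%, near the 13.7% of all genes). Fbxo31, a ubiquitin ligase subunit, averaged 58.5 ± 12.7 CPM with chemotherapy and 97.9 ± 23.6 CPM in healthy muscle (log2 fold change -0.74 ± 0.18, adjusted p = 0.0279 by edgeR). Foxo4 and Fbxo30, a further ligase of wasting muscle in mice, were at 0.84 and 0.72 without a call (adjusted p = 0.0502 and 0.0593). Foxo1 and Foxo3 were at -0.53 and -0.33, and Fbxo32 and Trim63, the ligases atrogin-1 and MuRF1, at 0.32 and 0.07 with chemotherapy over healthy. The call of Fbxo31 ended without any 1 of healthy libraries 1, 3 and 4 or chemotherapy libraries 13, 14 and 15.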
